A study of Mus musculus with 6 samples.

Results

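Histone genes were followed in mouse MLL-ENL/NrasG12D leukemia cells after PRMT5 inhibition. They were taken from the deposited table as every row whose symbol begins with Hist1h to Hist4h, H2af, H3f3 or H1f, with the centromeric histone gene Cenpa left out. The rule used symbols only, no measured value, and found 65 of 11644 genes. Of these, 57 are replication-dependent genes (the Hist symbols) and 8 are variant genes (H1f0, H2afj, H2afv, H2afx, H2afy, H2afz, H3f3a and H3f3b). The cells are a myeloid leukemia line that carries the MLL-ENL fusion and an activated Nras allele, and both groups share these alleles. In the PRMT5i group, 3 libraries came from cells given 5 µM EPZ015666, a small molecule that blocks the catalytic activity of the arginine methyltransferase PRMT5, for 72 h with a repeated treatment on day 2. In the DMSO group, 3 libraries came from cells given the solvent on the same schedule. The series text calls the replicates independent without saying what was repeated, so p-values measure the spread between these 6 libraries, which may be technical, and whether the line is a single clone is not given in the sources used here. The comparison asks how histone transcripts differ when PRMT5 is inhibited.

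Replication-dependent histone genes supply the core histones H2A, H2B, H3 and H4 and the linker histone H1 that package newly copied DNA. Their transcription peaks in S phase, and their mRNAs typically end in a short stem-loop bound by the stem-loop binding protein Slbp in place of a poly(A) tail. Variant genes are expressed through the cell cycle, usually make ordinary polyadenylated mRNA, and supply histones that replace the canonical ones at promoters, damaged DNA or silent chromatin. PRMT5 itself methylates arginines in the tails of H2A, H3 and H4. The libraries were made from polyadenylated RNA, so the values for replication-dependent genes describe the transcripts that poly(A) selection retained. What fraction of each gene's mRNA carried a tail was not measured.

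The stem-loop was located in the annotated transcripts to show which members carry it. A 16-base core, with a 6-base stem closing a 4-base loop, lay in the 3′ UTR of 38 of the 42 replication-dependent genes whose annotated UTR was long enough to hold it, of 1 of the 8 variant genes (H2afx), and of 4 of 10526 other genes (0.038%). All 3 H1, 7 H2A, 10 H2B and 7 H3 genes among these 38 shared the stem that begins GGCTCT, whereas 9 H4 genes and H2afx had GGCCCT and 2 H4 genes had GGTCCT. The stretches below, 1 from each family and a second H4 form, are followed by that of H2afx, the variant that shares the element. They are the RNA-sense strand of the mm10 transcripts of GENCODE release M21, written 5′ to 3′ as DNA. The 16-base core is in capitals, with 5 flanking bases on each side.
Hist1h1e: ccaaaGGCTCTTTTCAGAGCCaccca
Hist1h2ag: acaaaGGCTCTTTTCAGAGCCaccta
Hist1h2bk: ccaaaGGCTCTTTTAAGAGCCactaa
Hist1h3g: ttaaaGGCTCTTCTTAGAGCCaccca
Hist1h4d: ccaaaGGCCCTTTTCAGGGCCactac
Hist1h4b: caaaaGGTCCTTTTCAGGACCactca
H2afx: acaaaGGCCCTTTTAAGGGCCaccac
The cores lie at chr13:23621782-23621797 (minus strand) for Hist1h1e, chr13:22042483-22042498 (minus) for Hist1h2ag, chr13:22036300-22036315 (plus) for Hist1h2bk, chr13:23535889-23535904 (plus) for Hist1h3g, chr13:23581950-23581965 (plus) for Hist1h4d, chr13:23757366-23757381 (plus) for Hist1h4b and chr9:44335240-44335255 (plus) for H2afx.

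Replication-dependent histone transcripts were lower in PRMT5i cells across all 5 families, while the variant genes split. Of the 57 replication-dependent genes, 45 fell, 0 rose and 12 did not pass (limma on log2(normalized count + 1), adjusted p under 0.05 over all 11644 genes). By the same test 22.9% of all genes fell and 23.6% rose, 46.5% in all. At an unadjusted p under 0.05, 48 replication-dependent genes were lower and 0 higher, and edgeR and DESeq2 on the recovered reads also called 0 higher. The median log2 fold change of the 57 genes was -0.67 (range -1.47 to 0.20), beside 0.00 over all genes, and 54 of the 57 values were negative. Both ends of that range come from genes with few reads, Hist1h2ba and Hist3h2ba, at 26.6 normalized counts or fewer in every library. Hist1h2ba was at -0.16 without PRMT5i library 3. In 45 of the 57 every PRMT5i library lay below every DMSO library, which was so for 27.9% of all genes. Among the 8 variant genes, 4 fell, 1 rose and 3 did not pass, with a median of -0.25 (range -1.13 to 1.05). In the gene that rose every PRMT5i library lay above every DMSO library, as in 28.2% of all genes.

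**Figure D1:**
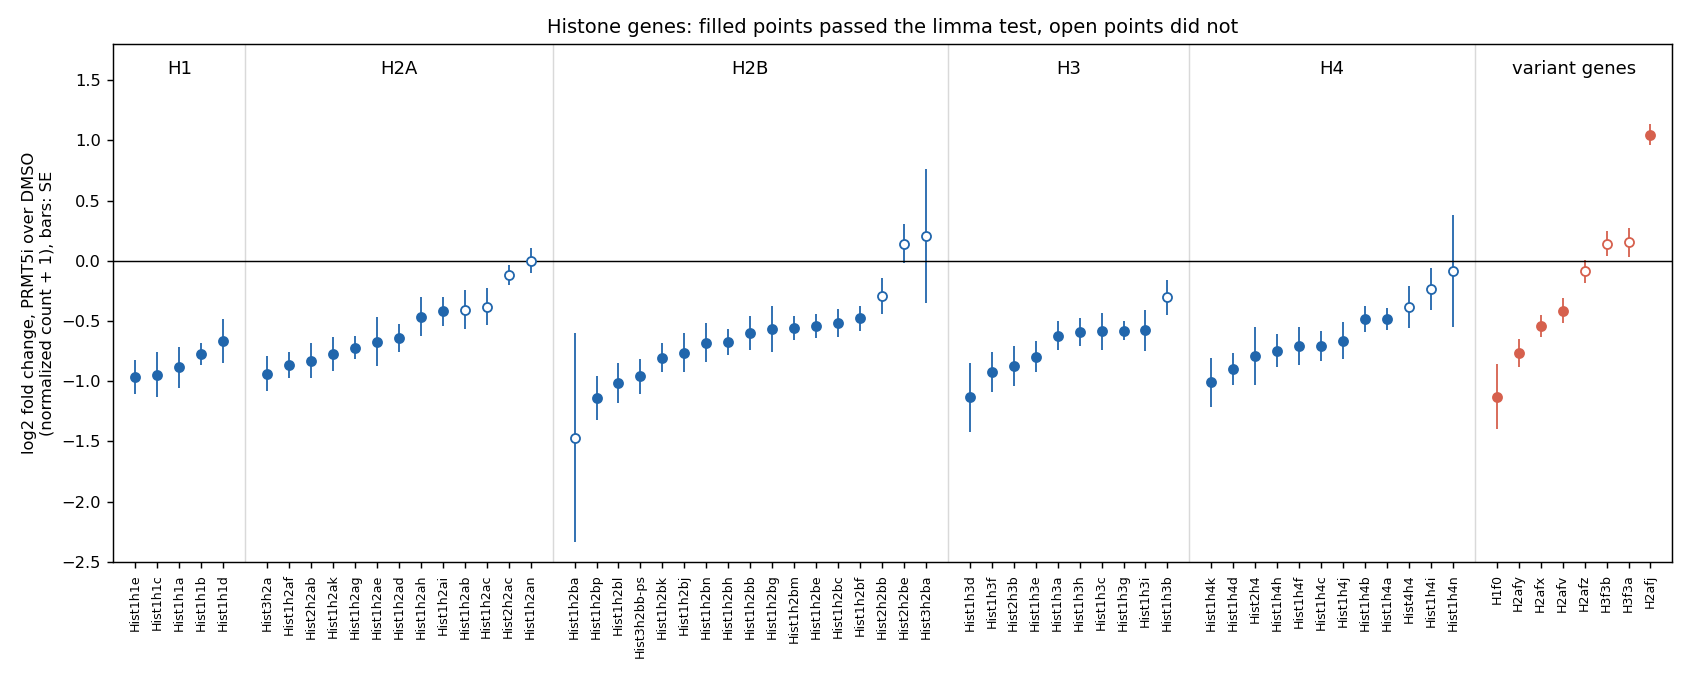
Log2 fold change, PRMT5i over DMSO, of each of the 65 histone genes on the log2(normalized count + 1) scale, with its limma standard error (n = 3 libraries a group), ordered within family. Filled points passed the test and open points did not: 45 of the 57 replication-dependent genes are filled below 0, and among the variant genes H2afj alone is filled above 0.

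The same difference was seen in the summed reads. Replication-dependent genes took 1.03%, 0.967% and 1.01% of the reads in the PRMT5i libraries, against 1.51%, 2.11% and 1.46% in the DMSO libraries. All 3 PRMT5i shares lay within a narrow band below the DMSO shares, and DMSO library 2 stood highest. The mean was 1.003% ± 0.0319 in PRMT5i and 1.69% ± 0.362 in DMSO (SD, n = 3 each), a ratio of 0.594, or 0.677 without DMSO library 2. Variant genes took 0.398%, 0.415% and 0.424% of the reads in the PRMT5i libraries, against 0.506%, 0.482% and 0.489% in the DMSO libraries. These groups did not overlap either, and DMSO library 2 was the lowest of its group here. Counting error was small: for DMSO library 2 the exact 95% interval of the replication-dependent share was 2.10% to 2.11%, and such intervals cover counting error only. In bulk RNA, fewer cells in S phase and less histone RNA per cell cannot be told apart.

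**Figure D2:**
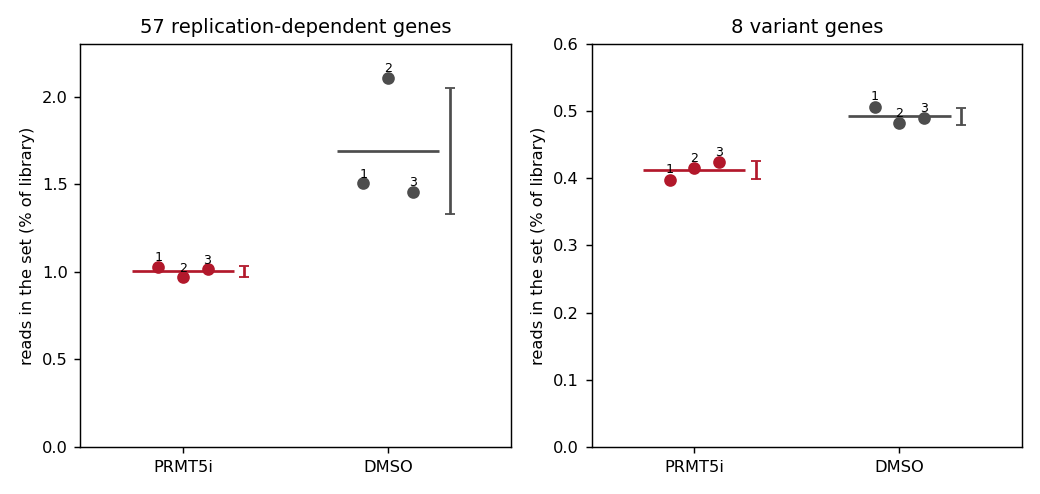
Share of each library's reads (%) that fell in the 57 replication-dependent genes (left) and the 8 variant genes (right), PRMT5i then DMSO. Points are libraries with their replicate number, horizontal lines means and bars SD. The PRMT5i points lie below the DMSO points in both panels, and the right panel leans on H2afy. DMSO 2 is the highest point on the left at 2.11% and the lowest DMSO point on the right at 0.482%.

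The DMSO libraries were unequal for replication-dependent genes. DMSO library 2 was the highest of its group for 54 of the 57, against 34.8% of all genes, and its log2 value lay a median of 0.48 above the mean of the other DMSO libraries, beside -0.01 over all genes. It exceeded them by at least 0.3 in 42 of the 57, against 13.3% of all genes. The median difference of DMSO library 1 from the other DMSO libraries was -0.17, and that of DMSO library 3, the lowest of the group for 39 genes, was -0.31. The excess of library 2 was widest in H1 genes, with a median of 0.73. The variant genes showed no such rise: DMSO library 2 was the lowest of its group for 6 of 8, with a median difference of -0.14, and was highest for H1f0 (1.28) and H3f3b (0.31). The 30 S-phase genes listed below had a median difference of -0.16 in DMSO library 2. The same library stood apart in Ddit3, a stress-induced transcription factor chosen after its values were seen, which had 361, 368 and 391 normalized counts in the PRMT5i libraries, against 171, 1378 and 237 in the DMSO libraries. The part of that difference in the histone values was not tested. Without DMSO library 2, 43 of the 45 replication-dependent genes still fell and 0 rose (of all genes 22.3% fell and 23.6% rose, 45.9% in all), their median log2 fold change was -0.53, and in 45 of the 57 every PRMT5i library lay below DMSO libraries 1 and 3, against 31.8% of all genes.

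**Figure D3:**
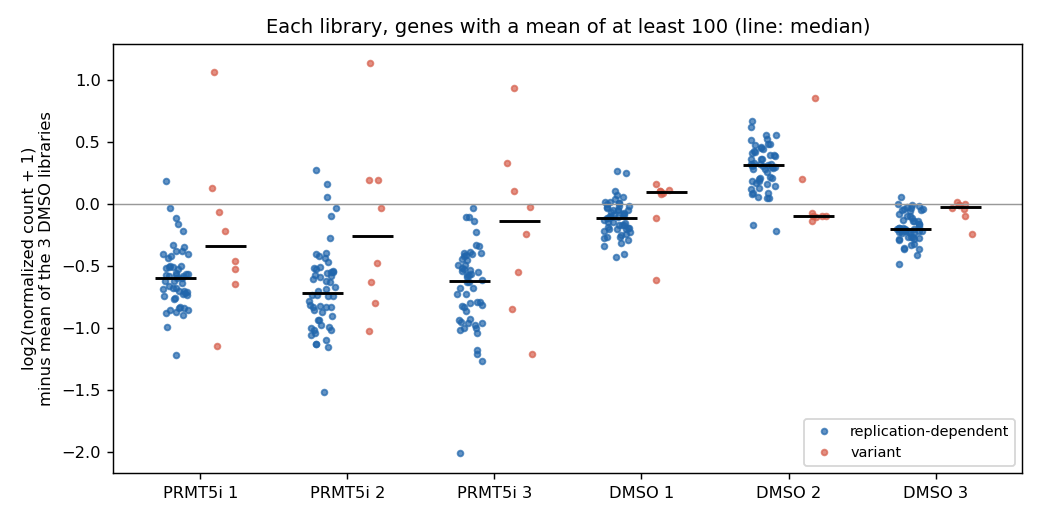
Difference between log2(normalized count + 1) in each library and the mean of the 3 DMSO libraries, for the 54 replication-dependent (blue) and 8 variant (red) genes that averaged 100 normalized counts or more; each point is a gene and each black line a median. Replication-dependent genes sit low in the 3 PRMT5i libraries and high in DMSO 2, while the variant medians do not follow DMSO 2.

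Linker histones bind DNA between nucleosomes and compact it. All 5 H1 genes fell, with a median log2 fold change of -0.89, which was -0.67 without DMSO library 2. Hist1h1b had 6744, 6596 and 6067 normalized counts in the PRMT5i libraries, against 11175, 11759 and 10247 in the DMSO libraries, a log2 fold change of -0.77 ± 0.09 (SE; limma adjusted p = 5.19e-05). Its DMSO libraries lay close together, and the groups were well apart. Hist1h1e (chr13:23620629-23622558, minus strand) had 7833, 6894 and 7088 in PRMT5i, against 12744, 18268 and 12206 in DMSO (-0.96 ± 0.14, limma adjusted p = 2.10e-04). Hist1h1a had 8590, 8815 and 8068 in PRMT5i, against 13445, 21994 and 13052 in DMSO (-0.89 ± 0.17, limma adjusted p = 0.00121). In both, DMSO library 2 was far above the other DMSO libraries and no PRMT5i library reached any of them. Hist1h1c and Hist1h1d also fell, by 0.95 and 0.67 on the log2 scale; for Hist1h1d the value was -0.41 without DMSO library 2. H1 genes took 0.257% ± 0.00544 of the reads in PRMT5i and 0.485% ± 0.134 in DMSO (SD, n = 3 each), the lowest ratio of the 5 families at 0.530. Without DMSO library 2 that ratio was 0.630, close to the 0.650 of H4 genes. The annotated Hist1h1e overlaps Hist1h2be on the same strand, so reads between them may have been assigned to either.

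H2A and H2B pair as the dimers on the outside of the nucleosome core. Of the 13 H2A genes, 9 fell and 4 did not pass, with a median log2 fold change of -0.64, which was -0.36 without DMSO library 2; without PRMT5i library 2, 6 of the 13 fell, in a fit where 17.8% of all genes fell. Hist1h2af had 945, 829 and 737 normalized counts in PRMT5i, against 1632, 1608 and 1329 in DMSO (-0.86 ± 0.11, limma adjusted p = 8.04e-05). Hist1h2ag had 846, 784 and 760 in PRMT5i, against 1274, 1478 and 1204 in DMSO (-0.72 ± 0.09, limma adjusted p = 9.55e-05). The groups were separate for both, with DMSO library 2 no more than slightly raised. Hist3h2a, on chromosome 11 outside the main cluster, had 1020, 956 and 997 in PRMT5i, against 1652, 2553 and 1628 in DMSO (-0.94 ± 0.14, limma adjusted p = 3.04e-04). Here the 3 PRMT5i libraries nearly coincided and DMSO library 2 was the high one. Among the other H2A genes that fell, Hist1h2ae, Hist1h2ah and Hist1h2ai rested most on DMSO library 2: their log2 fold changes of -0.67, -0.46 and -0.42 were -0.36, -0.28 and -0.27 without it.

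Of the 17 H2B genes, 13 fell and 4 did not pass, with a median log2 fold change of -0.60. Hist3h2bb-ps, which its symbol marks as a pseudogene, had 97.0, 86.7 and 117 normalized counts in PRMT5i, against 188, 203 and 192 in DMSO (-0.96 ± 0.14, limma adjusted p = 2.61e-04). Hist1h2bk had 2628, 2489 and 2493 in PRMT5i, against 3940, 5573 and 3968 in DMSO (-0.81 ± 0.12, limma adjusted p = 2.66e-04). Hist1h2bh had 3032, 2964 and 2632 in PRMT5i, against 4528, 5324 and 3977 in DMSO (-0.67 ± 0.11, limma adjusted p = 4.13e-04). No PRMT5i library overlapped a DMSO library in these 3 genes, and Hist3h2bb-ps varied little among its DMSO libraries. Hist1h2bg, at -0.57, depended on DMSO library 2: without it the value was -0.29 and did not pass (limma adjusted p = 0.0549).

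H3 and H4 form the tetramer at the centre of the nucleosome, and their tails carry many of the regulated methyl and acetyl marks. Of the 10 H3 genes, 9 fell and 1 did not pass, with a median log2 fold change of -0.61. Hist1h3g had 1754, 1745 and 1763 normalized counts in PRMT5i, against 2534, 2794 and 2551 in DMSO (-0.58 ± 0.08, limma adjusted p = 1.01e-04). The libraries of each group nearly coincided for this gene, in DMSO library 2 as well. Hist1h3e had 4257, 3810 and 3280 in PRMT5i, against 5916, 7966 and 5947 in DMSO (-0.80 ± 0.13, limma adjusted p = 4.12e-04). Hist1h3f had 3094, 2302 and 2596 in PRMT5i, against 4230, 6831 and 4390 in DMSO (-0.93 ± 0.17, limma adjusted p = 8.12e-04). Both were again highest in DMSO library 2, with no overlap between the groups. Hist1h3d, at -1.14, rested partly on PRMT5i library 3 and was -0.70 without it; Hist1h3c, at -0.59, was -0.37 without PRMT5i library 2, and Hist1h3i, at -0.58, was -0.31 without DMSO library 2.

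Of the 12 H4 genes, 9 fell and 3 did not pass, with a median log2 fold change of -0.69, which was -0.48 without DMSO library 2. Hist1h4d had 8434, 7161 and 7165 normalized counts in PRMT5i, against 12555, 17390 and 12836 in DMSO (-0.90 ± 0.13, limma adjusted p = 2.08e-04). Hist1h4c had 3881, 4092 and 4124 in PRMT5i, against 6087, 8228 and 5694 in DMSO (-0.71 ± 0.12, limma adjusted p = 6.79e-04). Hist1h4h had 5506, 4236 and 6782 in PRMT5i, against 9073, 9389 and 8759 in DMSO (-0.75 ± 0.14, limma adjusted p = 0.00115). The groups did not overlap in any of these 3, and in Hist1h4h the spread lay among the PRMT5i libraries and not among the DMSO libraries. Hist2h4 had a value of -0.79, which was -0.45 without DMSO library 2.

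Replication-dependent genes sit in 4 clusters: Hist1 on chromosome 13 with 47 members, Hist2 on chromosome 3 with 6, Hist3 on chromosome 11 with 3 and Hist4 on chromosome 6 with 1. In Hist1, 40 of 47 fell, with a median log2 fold change of -0.67. Its members lie in a pair of stretches, where 15 of 18 genes in chr13:21715763-22043676 and 25 of 29 in chr13:23531050-23934156 fell, each with a median of -0.67. In Hist2, 3 of 6 fell with a median of -0.54, which was -0.28 without DMSO library 2. In Hist3, 2 of 3 fell, and the single Hist4 gene did not pass.

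Of the 12 replication-dependent genes that did not pass, 9 averaged 100 normalized counts or more, and the low values of the other 3 (Hist1h2ba, Hist3h2ba and Hist1h4n) limit what could be detected, at 26.6 normalized counts or fewer in every library. Hist2h2be, an H2B gene, had 200.2, 213 and 172 in PRMT5i, against 143, 220 and 172 in DMSO (0.14 ± 0.16, limma adjusted p = 0.493). Hist1h2an, an H2A gene, had 666, 762 and 619 in PRMT5i, against 631, 744 and 667 in DMSO (0.00 ± 0.10, limma adjusted p = 0.993). The groups overlapped in both of these genes. Hist2h2ac, also H2A, had 2907, 3081 and 2688 in PRMT5i, against 3225, 3255 and 2946 in DMSO (-0.12 ± 0.08, limma adjusted p = 0.261). Hist2h2bb, an H2B gene, had 6538, 6438 and 7896 in PRMT5i, against 7431, 11142 and 7399 in DMSO (-0.29 ± 0.15, limma adjusted p = 0.128). In each of these, 1 PRMT5i library lay among the DMSO libraries. The H2A genes Hist1h2ab and Hist1h2ac had log2 fold changes of -0.41 and -0.38 with limma adjusted p of 0.0578 and 0.0586, and edgeR called both lower (adjusted p = 0.0402 and 0.0399). Hist1h3b (-0.30, limma adjusted p = 0.108), Hist4h4 (-0.38, 0.0871) and Hist1h4i (-0.23, 0.291) had negative values, and that of Hist1h4i was 0.0071 without DMSO library 2. With 1 library left out, Hist1h2ab passed without DMSO library 1 or 3, Hist1h2ac without DMSO library 3, Hist1h3b without PRMT5i library 2 (-0.48) and Hist4h4 without PRMT5i library 3 (-0.53). Other libraries moved these values towards 0. Without DMSO library 2, Hist1h2ab was at -0.16, Hist1h2ac at -0.17 (limma adjusted p = 0.170 and 0.192), Hist2h2bb at -0.10 and Hist4h4 at -0.24. Hist4h4 was at -0.16 without PRMT5i library 2, Hist1h3b at -0.17 without PRMT5i library 1 and Hist2h2ac at -0.07 without PRMT5i library 3, and Hist2h2be was at 0.31 without DMSO library 2.

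Of the 45 genes that fell, 38 also fell in all 6 fits that left out 1 library, and 7 lost the call in at least 1. Without PRMT5i library 2, the least deeply sequenced library, where 17.8% of all genes fell, all 7 missed the threshold: Hist1h1d, Hist1h2ae, Hist1h2ah, Hist1h2ai, Hist1h2bg, Hist1h3i and Hist2h4. Hist1h2ah and Hist1h2bg also missed it without DMSO library 2 and without PRMT5i library 1, Hist1h2ah without DMSO library 3, Hist1h2bg and Hist1h2ae without PRMT5i library 3, and Hist2h4 without PRMT5i library 1. The direction stayed negative for all 7 in these fits.

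Several features of the transcripts were set beside the fold changes, with divisions chosen after the values were seen. Of the 16 replication-dependent genes whose annotated transcript runs at least 300 bases past the stem-loop, 13 fell, with a median log2 fold change of -0.75. Of the 22 with a shorter run, 17 fell (median -0.58), and of the 19 with no stem-loop in the annotated UTR, 15 fell (median -0.77). This last class is set largely by the annotation, since 38 of the 42 genes with a UTR long enough hold the element. Most of the 19 could not be scored for it, so they are not known to lack it. Genes fell in each class as annotated. Across 36 genes, the length of that run and the log2 fold change had a Pearson r of -0.05 and a Spearman rho of -0.14 (these genes share libraries and are not independent). In human cells, the counterparts of Hist1h1c, Hist1h2ac, Hist1h2bc, Hist1h2bd, Hist1h2bk and Hist2h2be are known to be made in polyadenylated form as well; 5 of these 6 were analysed, of which 3 fell (Hist1h1c, Hist1h2bc and Hist1h2bk) and 2 did not pass, with a median of -0.52. Sequence shared between genes also limits single-gene values. The median share of 50-base words also found in a transcript of another of the 65 genes was 58.0% for H2A genes, 51.8% in H3, 38.2% in H2B, 34.2% in H4 and 2.21% in H1. Among the 20 genes under 25% shared, 14 fell (median -0.69), and among the 37 with more, 31 fell (median -0.62). Hist1h1a and Hist1h1b share no such word, whereas Hist1h2af shares 79.7% and Hist1h2bk 74.0%, so the values of these H2A and H2B genes are the less certain.

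Promoters were examined because the members moved together and because Pou2f1, the factor known to bind the octamer of H2B promoters, fell as well (values below). RefSeq promoters on GRCm38.p6, from 250 bases before to 50 after the start, matched 58 of 65 members. Both strands were searched for 4 motifs. The TATA box was searched as TATAAA. The CCAAT box was searched by the letters of its name. The octamer is ATTTGCAT, and the H1 box of linker histone promoters was searched as AAACACA. No hits of different motifs overlapped. The octamer was present in 13 of 51 replication-dependent promoters, 6 of H2A and 7 of H2B genes, against 1.97% of 27025 RefSeq genes. Some of these promoters overlap, as in Hist1h2ae with Hist1h2bg and Hist1h2ah with Hist1h2bk, so the same site can count for both genes. The H1 box was in 4 of 5 H1 promoters, against 8.22% of all. TATAAA was in 32 of 51, against 15.7%, and CCAAT was in 43 of 51, against 41.1%, with 3 of 11 H4 promoters holding it. Among variant genes, 1 of 7 held TATAAA and 5 of 7 held CCAAT. The 150 bases before the start are given for 1 gene of each kind, on the gene's own strand with motif hits of either strand in capitals. Within these 150 bases Hist1h1e holds the H1, CCAAT and TATA boxes, and Hist1h2bk the octamer and CCAAT boxes. Hist1h4d holds a CCAAT box on the opposite strand and a TATA box, and H2afj, the variant that rose, CCAAT boxes alone. The searched promoter of Hist1h2bk also holds TATAAA, but not within the bases given.
Hist1h1e, chr13:23622559-23622708, minus strand: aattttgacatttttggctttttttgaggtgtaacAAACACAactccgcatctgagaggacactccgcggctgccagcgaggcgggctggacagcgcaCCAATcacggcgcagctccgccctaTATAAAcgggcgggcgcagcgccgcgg
Hist1h2bk, chr13:22035671-22035820, plus strand: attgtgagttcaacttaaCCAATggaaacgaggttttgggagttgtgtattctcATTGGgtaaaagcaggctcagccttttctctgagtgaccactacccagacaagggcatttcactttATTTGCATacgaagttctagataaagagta
Hist1h4d, chr13:23581418-23581567, plus strand: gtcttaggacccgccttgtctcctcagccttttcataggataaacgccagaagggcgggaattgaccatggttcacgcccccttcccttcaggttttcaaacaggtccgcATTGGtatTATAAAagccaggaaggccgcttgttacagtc
H2afj, chr6:136808098-136808247, plus strand: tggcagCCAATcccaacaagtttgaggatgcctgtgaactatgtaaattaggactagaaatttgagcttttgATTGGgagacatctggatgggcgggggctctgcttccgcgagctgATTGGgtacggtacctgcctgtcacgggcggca
Of the 13 H2A and H2B genes with an octamer, 8 fell (median log2 fold change -0.56), and of the 14 without, 12 fell (median -0.70). Genes with and without the octamer were thus both lower, and the difference between them was not tested. Genes with overlapping promoters are counted separately in this division.

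The variant genes did not move as a group. H2afj, which encodes the H2A variant H2A.J, had 3118, 3272 and 2854 normalized counts in PRMT5i, against 1580, 1396 and 1492 in DMSO (1.05 ± 0.08, limma adjusted p = 2.87e-06). Every PRMT5i library had more than any DMSO library by a wide margin, and it was the only histone gene called higher. H2afy (chr13:56073619-56136361, minus strand), which encodes macroH2A, a variant with a large extra domain that is associated with silent chromatin, had 18585, 16685 and 16173 in PRMT5i, against 31364, 27149 and 28890 in DMSO (-0.76 ± 0.11, limma adjusted p = 2.46e-04). H2afx, whose product is phosphorylated beside DNA breaks, had 3768, 3350 and 3537 in PRMT5i, against 5584, 4808 and 5134 in DMSO (-0.54 ± 0.09, limma adjusted p = 4.25e-04). Neither gene was raised in DMSO library 2, in contrast to most replication-dependent genes, although H2afx carries the stem-loop shown above. H1f0, the linker variant known from resting and differentiated cells, had 569, 619 and 546 in PRMT5i, against 823, 2286 and 1069 in DMSO (-1.13 ± 0.27, limma adjusted p = 0.00502). Its fold rested in part on DMSO library 2 and was -0.70 without it (limma adjusted p = 2.37e-04).

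H2A.Z, the variant found at the nucleosomes beside active promoters, is encoded by H2afz and H2afv. H2afv had 849, 877 and 1034 normalized counts in PRMT5i, against 1371, 1114 and 1195 in DMSO (-0.41 ± 0.10, limma adjusted p = 0.00658). H2afz had 9810, 11150 and 11164 in PRMT5i, against 12276, 10810 and 11081 in DMSO (-0.09 ± 0.10, limma adjusted p = 0.486). The groups overlapped for H2afz and not for H2afv. H3f3a and H3f3b encode the same protein, H3.3, which is laid down independently of DNA replication by HIRA, DAXX and ATRX. H3f3a had 14706, 17549 and 19390 in PRMT5i, against 16256, 14370 and 15523 in DMSO (0.15 ± 0.12, limma adjusted p = 0.312). H3f3b had 11826, 12340 and 11617 in PRMT5i, against 9984, 12450 and 10130 in DMSO (0.14 ± 0.11, limma adjusted p = 0.293). Both overlapped between the groups. Per kilobase of annotated exon, merged over all transcripts of a gene, the variant genes in PRMT5i ran from 281 (H1f0) to 6029 (H2afz) normalized counts and those in DMSO from 678 (H1f0) to 6413 (H2afz). Merging can lower the value of a gene with several transcripts, such as H2afz (1776 bases, longest transcript 1069), so genes compare only roughly.

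**Figure D4:**
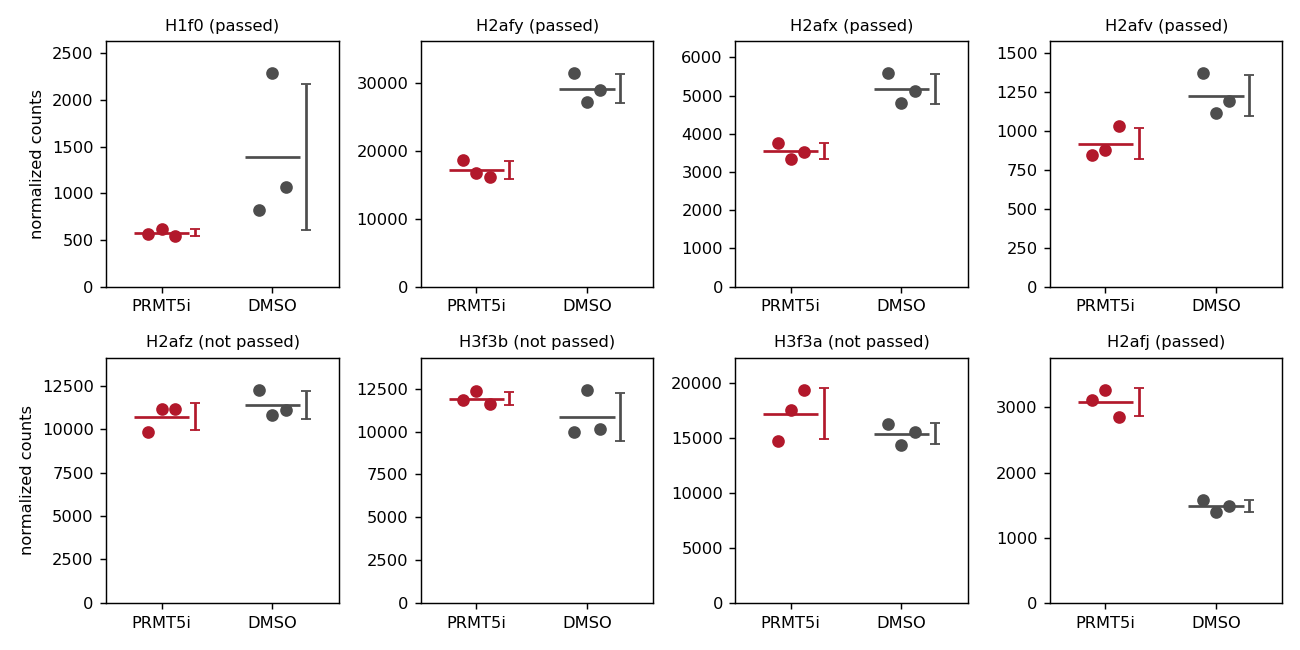
Normalized counts of the 8 variant histone genes in each library, PRMT5i (red) then DMSO (grey), with the mean (line) and SD (bar) of 3 libraries. H2afj is the gene whose PRMT5i points all lie above the DMSO points; H1f0, H2afy, H2afx and H2afv lie below, and H2afz, H3f3a and H3f3b overlap.

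The balance of variant to replication-dependent reads was then taken within each library. Reads of the H3.3 genes over those of the replication-dependent H3 genes came to 1.1597, 1.4306 and 1.4730 in the PRMT5i libraries, against 0.8299, 0.6360 and 0.8416 in the DMSO libraries. The groups did not overlap, and the ratio was 1.35 ± 0.170 in PRMT5i and 0.769 ± 0.116 in DMSO (SD, n = 3 each), a fold of 1.76, or 1.62 without DMSO library 2. H2afj reads over replication-dependent H2A reads came to 0.169, 0.180 and 0.165 in PRMT5i, against 0.0674, 0.0425 and 0.0643 in DMSO, a fold of 2.95, or 2.60 without DMSO library 2. The H2A.Z ratio overlapped between the groups, at 0.576, 0.661 and 0.704 in PRMT5i and 0.582, 0.363 and 0.529 in DMSO. The ratios of H2afx, H2afy and H1f0 to their replication-dependent counterparts had folds of 0.977, 0.838 and 0.802, with overlapping groups. Without DMSO library 2 these folds were 0.859, 0.737 and 0.944, and the H2afx and H2afy ratios of the PRMT5i libraries then lay below those of the DMSO libraries. These are ratios of reads in polyadenylated RNA and show unequal change, with no statement on protein.

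**Figure D5:**
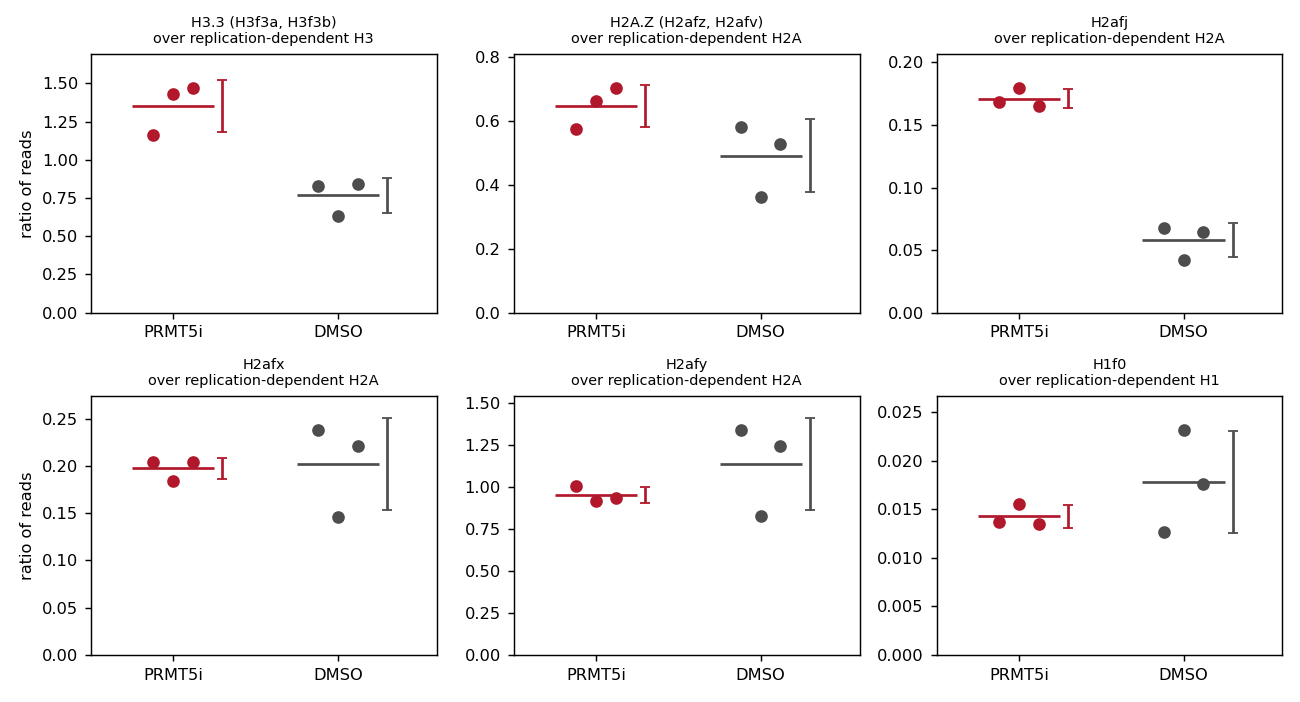
Ratio of reads of each variant to reads of the replication-dependent genes of its family within each library, PRMT5i (red) then DMSO (grey), with the mean (line) and SD (bar) of 3 libraries. The H3.3 and H2afj ratios are separate between the groups and higher in PRMT5i; the other 4 overlap, H2afx and H2afy through DMSO 2.

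Beside the 22.9% of all genes that fell and the 23.6% that rose, the genes that make and handle histones are given in 4 lists. Of 17 genes of histone mRNA synthesis and 3′ processing, 7 fell, 1 rose and 9 did not pass, with a median log2 fold change of -0.21; without PRMT5i library 2, 4 fell (17.8% of all genes). Pou2f1 had 513, 508 and 468 normalized counts in PRMT5i, against 757, 722 and 1015 in DMSO (-0.73 ± 0.12, limma adjusted p = 5.60e-04). Zcchc11, a terminal uridylyltransferase, fell by 0.50 on the log2 scale (limma adjusted p = 7.31e-04), and Zfp473, a zinc finger protein of the histone processing complex, by 1.52, with 23.5, 22.4 and 11.8 counts in PRMT5i, against 65.2, 50.1 and 50.1 in DMSO (limma adjusted p = 0.00114). Slbp, chosen for its role after its value was seen, had 2143, 2012 and 1631 in PRMT5i, against 2553, 2313 and 2514 in DMSO (-0.36 ± 0.10, limma adjusted p = 0.0137). The gene that rose was Hinfp, a factor known to bind H4 promoters, with 828, 924 and 995 in PRMT5i, against 738, 722 and 705 in DMSO (0.34 ± 0.09, limma adjusted p = 0.00889). Npat, the coactivator of the histone clusters, had a value of -0.21 and did not pass (limma adjusted p = 0.0743).

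Chaperones that deliver new histones to copied DNA and those that place variants were counted apart. Of 14 replication-coupled genes, 6 fell, 1 rose and 7 did not pass (median log2 fold change -0.14); 2 fell without DMSO library 1 (19.2% of all genes) or without PRMT5i library 2 (17.8%). Asf1b, which carries H3 and H4, fell by 0.48 on the log2 scale (limma adjusted p = 7.37e-04) and Nasp, a chaperone of H3, H4 and linker histones, by 0.47 (limma adjusted p = 0.00460). Tonsl, which reads newly made H4 behind the fork, had 661, 769 and 961 normalized counts in PRMT5i, against 516, 505 and 554 in DMSO (0.59 ± 0.12, limma adjusted p = 0.00238). Of 17 replacement chaperones and exchange factors, 4 fell, 0 rose and 13 did not pass (median -0.13), and 2 fell without DMSO library 3 (18.5% of all genes). These included Ino80, the ATPase of a remodeller (-0.40, limma adjusted p = 0.00180), Anp32e, which removes H2A.Z (-0.44, limma adjusted p = 0.00780), and Dek, an H3.3 chaperone (-0.34, limma adjusted p = 0.0261). Dek did not pass without DMSO library 1 or 3 or PRMT5i library 3 (limma adjusted p = 0.105, 0.0531 and 0.0834).

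Of 30 S-phase genes, 13 fell, 2 rose and 15 did not pass, with a median log2 fold change of -0.21. That of the replication-dependent histone genes was -0.67, but DMSO library 2 widens the gap. Its median difference from the other DMSO libraries was -0.16 for the S-phase genes and 0.48 for the histone genes. Without that library the histone median was -0.53, and the S-phase median is not given here. Tk1, thymidine kinase, had 797, 790 and 828 normalized counts in PRMT5i, against 1614, 1422 and 1519 in DMSO (-0.91 ± 0.08, limma adjusted p = 5.63e-06). Mcm7, a subunit of the replicative helicase, fell by 0.90 on the log2 scale (limma adjusted p = 3.80e-05) and Pola1, the primase-coupled polymerase, by 0.57 (limma adjusted p = 6.23e-04). The count varied with the libraries, as did that over all genes: 7 fell without PRMT5i library 2 (17.8% of all genes fell), 8 without PRMT5i library 3 (20.7%), 8 without DMSO library 1 (19.2%) and 17 without DMSO library 2 (22.3%). The part of S-phase content in the histone values was not tested.

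The libraries held between 11335948 and 15551525 reads in PRMT5i and between 15505127 and 19197912 in DMSO. Prmt5 transcripts had 2877, 2517 and 2130 normalized counts in PRMT5i, against 2706, 3183 and 2463 in DMSO (-0.15 ± 0.12, limma adjusted p = 0.316); its product is what the compound binds. Of 10 myeloid markers, 9 were analysed, with summed counts of 26030 to 26636 in PRMT5i and 18324 to 19369 in DMSO. The list split, with 2 lower, 4 higher and 3 not passed. Itgam (log2 fold change 1.93) and Csf1r (1.66), which mark maturing myeloid cells, rose most, Hoxa9 (0.47) and Spi1 (0.23) rose less, and Mpo (-1.11) and Cebpa (-0.54) fell. These genes were picked after their values were seen. Markers of other cells were low in both groups. Itga2b, of the megakaryocyte list, had 20.4 to 40.9 in PRMT5i and 4.04 to 9.82 in DMSO. It was called higher (log2 fold change 2.00, limma adjusted p = 0.00145). Lck of T cells had 18.2 to 19.4 in PRMT5i and 8.15 to 17.8 in DMSO. Cd79b of B cells had 12.3 to 22.6 in PRMT5i and 24.5 to 28.5 in DMSO. Neither Lck nor Cd79b passed. The stromal and endothelial list summed to 3578 to 3996 in PRMT5i and 3010 to 3644 in DMSO, nearly all of it Pecam1, which leukocytes also express, and the part of these markers in the histone values was not tested.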

How the data were processed

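Per the labels' protocols, polyadenylated RNA was made into stranded mRNA libraries. The build mm10 and 4 tools are listed in the submitters' processing notes with no role for any: DESeq 1.16.0, HTSeq 0.6.0, TopHat2 2.0.10 and CASAVA 1.8.2. Annotation, strand setting and the fate of multiply mapped reads are not given in the sources used. These bear on near-identical histone genes and on the 23 members that overlap another annotated gene. The authors deposited a normalized signal, read counts divided by a size factor per library. Divided by the step of its library, 100% of values came out whole (tolerance 1e-06), so reads were recovered. The highest library of each gene holds 10 reads or more.

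PRMT5i was set against DMSO in a limma-trend fit (version 3.58.1 under R 4.3.3) of log2(normalized count + 1), two-sided, for 11644 genes. Benjamini-Hochberg adjustment was at 0.05, with no replicate block. The added 1 shrinks changes of low genes, while a single count of 0 can enlarge them. Hist1h2ba, with 0 in PRMT5i library 3, had a log2 fold change of -1.47 beside a ratio of means of 0.557. On recovered reads, edgeR 4.0.16 called 5412 genes and DESeq2 1.42.0 called 4999, beside 5418 by limma. Other alternatives were pseudocounts of 0.5 and 5, a minimum mean of 100, TMM and upper-quartile factors, a replicate block, and leaving out each library. The design had named edgeR for raw counts and limma for normalized values. No pair of libraries of a group agreed within sampling noise (chi-square per degree of freedom 9.43 to 20.7). The fitting procedure was tested on simulated data with far fewer changed genes than were called here and no outlying library. No result here rests on that test.

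The members and lists were chosen with earlier results of these data known. Named genes are all variants, in each replication-dependent family the 3 smallest adjusted p and each member that did not pass with a mean of at least 100, the 3 smallest adjusted p of each list, and Prmt5; others named were chosen after their values were seen. Positions come from GENCODE release M21 (mm10), which matched all 65 members.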

Additional observations from a re-analysis of the deposited data

How the results depend on the processing

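The count of replication-dependent genes that fell was 42 with DESeq2 (2447 of all 11644 genes fell), 47 with edgeR (24.2% of all genes), 46 with TMM factors (24.4%) and 45 with pseudocounts of 0.5 (22.8%) or 5 (22.9%), the minimum mean of 100 (26.1% of 9100) or upper-quartile factors (23.1%). With 1 library left out it ran from 39 (without PRMT5i library 2, 17.8%) to 46 (without DMSO library 1, 19.2%, or 3, 18.5%). Of the 45 genes, 38 fell in all 6 of these fits. No replication-dependent gene rose under any of these settings. The median ran from -0.77 to -0.53 with 1 library left out. Among variants, 4 fell and 1 rose under every setting, and their median ran from -0.31 to -0.18, the upper end without DMSO library 1. With the replicate number as a block, 48 replication-dependent genes fell (2916 of all genes). The labels link same-numbered libraries by that number alone and do not say whether they were handled together. Deviations of same-numbered libraries correlated at 0.247, 0.0735 and 0.263. Those of different numbers correlated at -0.235 to -0.0157, so each correlated best with its own number. A shared batch was not tested. The 3 genes near 0 listed here changed sign, with the cause not tested: Hist1h2an (-0.0206 with TMM factors, -0.0217 with edgeR, and -0.0809 to 0.0691 with 1 library left out), Hist2h2be (-0.0027 without DMSO library 1, in a range up to 0.31) and Hist1h4i (0.0071 without DMSO library 2, in a range down to -0.37). Of 629 comparisons of the 45 genes named by rule, 607 kept direction and side of the threshold. Genes with few reads, such as Hist1h2ba, Hist3h2ba and Hist1h4n, could not show modest changes at this depth. Of these, Hist1h4n (-0.27 to 0.17) and Hist3h2ba (-0.27 to 0.66) also changed sign with 1 library left out.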
